A study of Mus musculus with 7 samples.

Results

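Protein-coding genes of the mouse were sorted by the chromatin binding of the clock factors BMAL1 and REV-ERBα in gastrocnemius muscle into 3 classes, namely genes bound by BMAL1 only, by REV-ERBα only, or by both. A binding region was a run of overlapping peaks with a peak in each of the 2 replicate lists of that factor, and a gene belonged to a factor when such a region reached within 10 kb of an annotated transcription start site (TSS). A gene counted as bound by BMAL1 only when neither REV-ERBα list had any peak in that window, and as bound by REV-ERBα only when neither BMAL1 list had one. Of 21938 protein-coding genes, 275 (1.25% of all genes) were bound by BMAL1 only, 47 (0.214%) by REV-ERBα only and 136 (0.62%) by both, so the 3 classes held 458 genes.

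The chromatin came from wild-type male C57BL/6J mice 5 months of age, kept on a light-dark cycle with standard chow. BMAL1 was precipitated at zeitgeber time (ZT) 4 and REV-ERBα at ZT8, where ZT counts hours from lights on, and RNA polymerase II (RNAP2) was precipitated at ZT4, each with 2 biological replicates. BMAL1 was captured with a commercial antibody and REV-ERBα with a mixture of 2 antibodies, and peaks were called against input DNA. Since the factors were assayed at different times of day with different antibodies, the factor, the time and the antibody cannot be told apart in any difference between the classes.

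BMAL1 and its partner CLOCK form the activating arm of the circadian clock. The pair binds E-boxes, whose canonical form is CACGTG, near the period, cryptochrome and REV-ERB genes. REV-ERBα, encoded by *Nr1d1*, is a heme-binding nuclear receptor without an activation domain that recruits the corepressor NCoR1 and the histone deacetylase HDAC3, and it represses *Bmal1* itself. In skeletal muscle both factors are known to act on carbohydrate and lipid use as well as on the clock.

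The label of the tissue was checked with RNAP2. All 8 markers of fast skeletal muscle examined had RNAP2 within 1 kb of a TSS in a region found in both replicates, with the lower −log10 p of the replicates between 7.70 and 46.8. None of 4 endothelial, 4 neuronal or 4 adipocyte markers had such a region, whereas 1 of 4 macrophage markers and 2 of 4 fibroblast markers did, the highest of these at 5.52. The part of other cells in the BMAL1 and REV-ERBα lists was not tested.

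The lists differed in length. BMAL1 replicate 2 held 177669 peaks, against 34737 in BMAL1 replicate 1 and 28881 and 29934 in the REV-ERBα replicates. A peak lay within 10 kb of a TSS for 81.3% of genes in BMAL1 replicate 2, 30.4% in BMAL1 replicate 1, and 30.4% and 31.4% in the REV-ERBα replicates. As a result only 15.9% of all genes were free of any BMAL1 peak, while 52.0% were free of any REV-ERBα peak, which bears directly on how large each exclusive class could become. The X chromosome held few peaks in each BMAL1 and REV-ERBα list, between 19 and 337, and 92.9% of its 948 genes had no BMAL1 peak.

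The sequences of clock-gene sites that held an E-box are shown first. Of the 10 clock genes in the class bound by both factors, 8 had CACGTG within 100 bp of the BMAL1 summit. The copy nearest each summit is given below with 12 bases to either side, on the plus strand of GRCm38 (mm10), with the CACGTG in capitals.

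*Tef*, chr15:81811042-81811071: ctgctgccgctcCACGTGaccctcggggct
*Dbp*, chr7:45707700-45707729: acattccctcgcCACGTGagtccgccttcc
*Ciart*, chr3:95882327-95882356: gcttaccggcaaCACGTGactctagatgca
*Nr1d2*, chr14:18238558-18238587: gccccgcggcctCACGTGtctccgcccgcc
*Per1*, chr11:69094871-69094900: tgagccagcctgCACGTGttccctacagct
*Nr1d1*, chr11:98783530-98783559: gagggggtggggCACGTGgccctgcccgag
*Bhlhe41*, chr6:145855879-145855908: cgtgcgcagtgaCACGTGtgaaagcacgcg
*Bhlhe40*, chr6:108659431-108659460: ccgcgtccgggcCACGTGaagcgtcacgcc

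The CACGTG began 9 bp downstream of the summit at *Tef*, 12 bp upstream at *Per1* and 78 bp upstream at *Ciart*, counted along the plus strand. *Nr1d2* had 3 copies in its 201-bp window and *Bhlhe41* had 2. The *Nr1d1* site lay 8156 bp upstream of the nearest TSS of that gene and the *Bhlhe41* site 9384 bp downstream, both intergenic, whereas the summits of *Tef*, *Dbp*, *Ciart*, *Nr1d2* and *Per1* lay within 1 kb of a TSS.

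Summit windows of the exclusive classes, and of *Tcap*, a sarcomere gene bound by both factors, are shown beside them. For each exclusive class they are those of the 8 strongest genes whose window overlapped no exon, in order of strength. They span 50 bp to either side of the summit, on the plus strand of GRCm38, with CAGCTG in capitals where it occurs. CAGCTG is an E-box of the form bound by myogenic factors.

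*Rnf44*, REV-ERBα only, chr13:54693993-54694093: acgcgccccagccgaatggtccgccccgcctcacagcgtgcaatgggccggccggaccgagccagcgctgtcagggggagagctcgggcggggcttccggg
*Was*, REV-ERBα only, chrX:8096680-8096780: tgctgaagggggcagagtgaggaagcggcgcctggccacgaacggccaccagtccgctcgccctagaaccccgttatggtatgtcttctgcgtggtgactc
*Ccdc85c*, REV-ERBα only, chr12:108275591-108275691: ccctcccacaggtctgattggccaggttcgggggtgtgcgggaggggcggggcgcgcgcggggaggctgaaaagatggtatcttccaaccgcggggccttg
*Hexim1*, REV-ERBα only, chr11:103115771-103115871: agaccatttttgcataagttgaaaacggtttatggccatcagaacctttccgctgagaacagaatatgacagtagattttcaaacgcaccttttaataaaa
*Slc35g3*, REV-ERBα only, chr11:69758739-69758839: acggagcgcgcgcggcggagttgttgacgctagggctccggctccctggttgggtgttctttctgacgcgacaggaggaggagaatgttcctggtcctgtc
*Gipc1*, REV-ERBα only, chr8:83652489-83652589: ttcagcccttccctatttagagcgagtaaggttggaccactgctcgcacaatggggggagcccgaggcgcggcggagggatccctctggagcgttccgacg
*Pdk1*, BMAL1 only, chr2:71889820-71889920: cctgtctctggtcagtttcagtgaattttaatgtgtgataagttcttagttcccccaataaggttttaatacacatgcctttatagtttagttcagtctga
*U2surp*, BMAL1 only, chr9:95504440-95504540: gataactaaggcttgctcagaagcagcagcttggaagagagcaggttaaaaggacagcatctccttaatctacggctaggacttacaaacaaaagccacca
*Mrps30*, BMAL1 only, chr13:118392237-118392337: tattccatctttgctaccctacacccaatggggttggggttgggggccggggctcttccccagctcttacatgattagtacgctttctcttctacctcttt
*Unc5a*, BMAL1 only, chr13:54959413-54959513: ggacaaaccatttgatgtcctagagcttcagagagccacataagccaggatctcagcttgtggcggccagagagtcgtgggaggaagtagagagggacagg
*Zfp65*, BMAL1 only, chr13:67728425-67728525: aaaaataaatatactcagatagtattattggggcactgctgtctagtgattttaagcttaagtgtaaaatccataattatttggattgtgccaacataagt
*Tcap*, BMAL1 summit, both, chr11:98383507-98383607: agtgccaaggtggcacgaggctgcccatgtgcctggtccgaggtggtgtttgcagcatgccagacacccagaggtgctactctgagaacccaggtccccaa
*Tcap*, REV-ERBα summit, both, chr11:98385116-98385216: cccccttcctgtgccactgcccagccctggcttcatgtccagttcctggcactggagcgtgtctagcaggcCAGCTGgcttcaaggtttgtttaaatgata

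None of these windows held CACGTG, and AGGTCA, the hexamer that nuclear receptors recognize, was not found in them on either strand. The *Tcap* window at the REV-ERBα summit held CAGCTG. The clock-gene sequences were picked for holding CACGTG within 100 bp, and at *Ciart*, *Bhlhe40* and *Nr1d1* it lay outside the narrower window used here. Within 100 bp of the summit, none of the 8 strongest genes of either exclusive class had CACGTG, nor did *Tcap* at either summit. A match describes the letters in the window and does not mark a bound site.

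Across all regions of each class, CACGTG within 100 bp of the summit occurred at 3 of 236 BMAL1 summits (1.27%, 95% exact binomial interval 0.263% to 3.67%) of genes bound by BMAL1 only, and at 13 of 133 (9.77%, 5.31% to 16.1%) of genes bound by both. Windows 2000 bp to either side of these summits held it at 2.33% and 2.26%, and 5.68% of 201-bp windows at the starts of all genes did. The 13 BMAL1 summits of genes bound by both include the 8 clock-gene summits shown above. At REV-ERBα summits CACGTG occurred at 1 of 39 regions (2.56%, 0.0649% to 13.5%) of genes bound by REV-ERBα only. For genes bound by both it occurred at 11 of 169 (6.51%, 3.29% to 11.3%), and these intervals overlap. CAGCTG occurred at 7 of 39 (17.9%, 7.54% to 33.5%) summits bound by REV-ERBα only and at 13.6% of the REV-ERBα summits of genes bound by both, beside 12.8% and 9.47% in the flanks and 12.4% at all gene starts. AGGTCA on either strand was found at 12.8% and 14.8% of these summits, beside 10.3% and 11.2% in the flanks. Regions of a class were counted once each, CACGTG and CAGCTG read the same on both strands, and the intervals cover counting error only.

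The strength of a region was taken as the lower −log10 p of its replicates, and that of a gene as the highest over its regions. Genes bound by BMAL1 only had a median strength of 1.87, between 1.32 and 3.54, which equals the median of all 2742 BMAL1 regions. Genes bound by both had a median BMAL1 strength of 2.4 with a maximum of 21.7. Strength reached 3 at 5 of the 275 genes bound by BMAL1 only and at 46 of the 136 bound by both. Read from the other side, 62 genes had a BMAL1 strength of at least 3, and 46 of them (74.2%) were bound by both, 5 by BMAL1 only and 11 had a REV-ERBα peak without a shared region. Among all 928 genes with a BMAL1 region, 14.7% were bound by both. For REV-ERBα the strong genes fell elsewhere. Of 498 genes with a REV-ERBα strength of at least 3, 24 were bound by REV-ERBα only and 98 (19.7%) by both. The other 376 (75.5%) had BMAL1 peaks in their window that formed no shared region. All 810 genes with a REV-ERBα region split similarly, into 47, 136 (16.8%) and 627 genes in the same order. Median REV-ERBα strength was 3.02 for the 47 genes bound by REV-ERBα only, 5.23 for those bound by both and 3.57 for the 627 genes with a REV-ERBα region and BMAL1 peaks that formed no shared region.

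**Figure D1:**
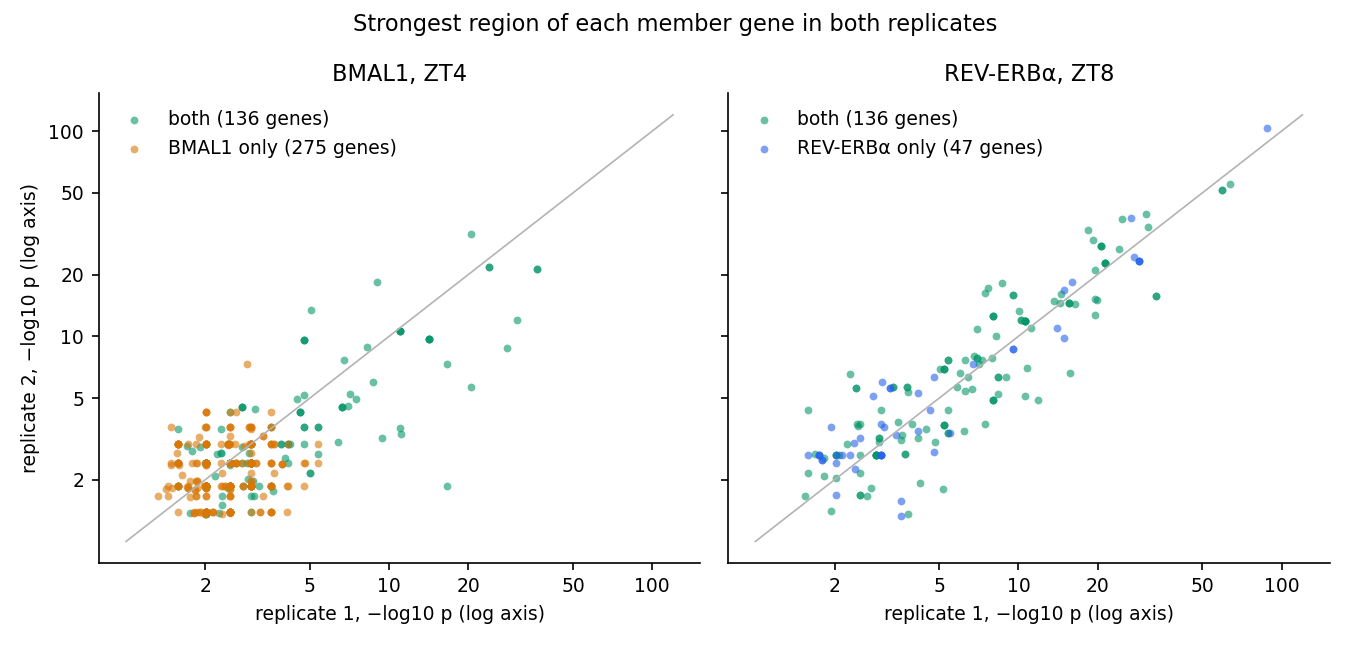
Strength of the strongest region of each member gene, as −log10 p in replicate 1 (horizontal, log axis) and replicate 2 (vertical, log axis), for BMAL1 (left) and REV-ERBα (right); each point is a gene and the line marks equal values. Genes bound by BMAL1 only stay at the weak end of both lists (lower value at most 3.54), whereas genes bound by REV-ERBα only run from 1.33 up to 87.7.

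Replicates gave different precision in the 3 classes. The best peaks of the 275 genes bound by BMAL1 only took 55 distinct −log10 p values in replicate 1 and 29 in replicate 2, and 67 genes shared the value 2.4 in replicate 2. Fold enrichment over input at these peaks had a median of 2.22 and 2.27 in the replicates. No BMAL1 region of this class had a −log10 q of 1.3 or more in both replicates, against 10 of 39 regions of the genes bound by REV-ERBα only and, in genes bound by both, 14 of 133 BMAL1 and 50 of 169 REV-ERBα regions.

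Among the genes bound by BMAL1 only, *Mrnip*, *Pdk1* and *U2surp* ranked first. *Pdk1*, a kinase that phosphorylates and inhibits pyruvate dehydrogenase, had −log10 p of 3.54 and 3.60 in replicates 1 and 2, from an intronic region 2452 bp downstream of a TSS. *U2surp*, a splicing factor of the U2 snRNP, had the same pair of values at an intronic summit 7366 bp from its start. *Mrnip*, which takes part in the response to DNA breaks, had 3.54 and 4.25. All 3 genes had replicates within 1 unit of each other on the −log10 scale, and all 3 had RNAP2 at a start.

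The next genes by strength in the class bound by BMAL1 only had little in common. *Mrps30*, a mitochondrial ribosomal protein, shared its intergenic region (3.32 and 3.26) with *B430218F22Rik*. *Stk24*, a Ste20-family kinase, had 5.38 in replicate 1 and 2.98 in replicate 2, and *Zfp65*, a zinc finger protein, had 4.12 and 2.98. *Krtap19-3*, a hair keratin-associated protein, gave 3.0 and 3.60 at a region that also reached the windows of *Krtap19-1* and *Krtap19-2*. *Unc5a*, a netrin receptor of neurons, gave 3.0 and 3.53, with the summit 10052 bp from the TSS because only the edge of the region lay inside the window. The keratin-associated genes, *Unc5a*, *Zfp65* and *Mrps30* had no RNAP2 region at a start.

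Few known muscle genes were bound by BMAL1 only. None of 24 clock genes and none of 48 sarcomere genes fell in this class, and 230 of its 275 genes were in none of the lists or families examined. *Acsl1*, which activates long-chain fatty acids, had −log10 p of 2.30 and 2.98 and was the only member among 37 fatty acid oxidation genes (2.70%, beside 1.25% of all genes). The authors reported a REV-ERBα peak near *Acsl1* and REV-ERBα binding there by quantitative PCR of precipitated chromatin. The class of *Acsl1* therefore describes these lists and this window only. *Fosl1*, a FOS-family factor, had 3.90 and 2.39, but the summit lay 59 bp from the start of *Ccdc85b*. *Gadd45a*, a stress-induced growth arrest gene, had 1.58 and 1.87, *Wnt16* had 1.87 and 1.83, and *Klf7*, a Krüppel-like factor, had 2.48 and 2.4. No peak could be listed with a −log10 p under 1.3, the cutoff of the peak caller.

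Receptor and keratin families of the nose and skin were also counted in the class bound by BMAL1 only. Olfactory receptors, vomeronasal receptors and keratins, counted with keratin-associated proteins, made up 25 of the 275 genes (9.09%), beside 7.18% of all protein-coding genes. In the other classes they were 1 of 47 and 1 of 136 genes. The class bound by BMAL1 only held 6 of 110 keratin family genes (5.45%, beside 1.25% of all genes), all of them keratin-associated. *Krtap19-1*, *Krtap19-2* and *Krtap19-3* among them share a region, so these genes are not independent. The same class held 0 of 331 vomeronasal receptors, and its share of olfactory receptors was near that of all genes. Its 19 olfactory receptors, 1.67% of the 1135 in the annotation, lay in clusters and shared regions: *Olfr597*, *Olfr598* and *Olfr599* rested on a region with 2.47 and 2.98. Of 394 zinc finger proteins 7 were bound by BMAL1 only (1.78%), among them *Zfp11* (3.0 and 2.98) and *Zfp639* (2.48 and 3.60). The other families gave 0 to 4 genes each, among them *Slc19a2*, a thiamine transporter, at 2.48 and 2.4, *Psmb2*, a proteasome subunit, at 2.44 and 2.94, and *Kcnj15*, a potassium channel, at 3.31 and 1.66. The remaining named members, *Rpl12*, *Slc44a5* and *Slc45a1*, had lower values between 1.58 and 1.87.

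The genes bound by REV-ERBα only included sites far stronger than any bound by BMAL1 only. *Rnf44*, a RING finger protein, had −log10 p of 87.7 and 104 in the replicates, with 14.2-fold and 17.5-fold enrichment over input, 136 bp upstream of a TSS. *Hexim1*, which holds the elongation kinase P-TEFb inactive, had 14.9 and 16.8 at 410 bp upstream. *Gipc1*, a PDZ scaffold protein, had 14.9 and 9.85 at 138 bp upstream, and *Ccdc85c* had 16.0 and 18.4 at 216 bp upstream. Both replicates placed these 4 genes well above the median of the class, and all 4 summits lay within 1 kb of a TSS.

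Membership of this class depended on the neighbourhood as well as on the site. The *Rnf44* region also lay within 10 kb of a TSS of *Cdhr2*, which has a BMAL1 peak in replicate 2 (4.25) and so was not counted as bound by REV-ERBα only. *Amdhd2*, an enzyme of amino sugar catabolism, had 27.4 and 24.3 from a summit that lay 52 bp from a start of *Atp6v0c*, a proton pump subunit with a BMAL1 peak of 1.87 in replicate 2. *Slc35g3* had 14 and 11.0 from a summit 152 bp from a start of *Polr2a*, the large subunit of RNAP2, which has BMAL1 peaks of 2.02 and 1.87. In all, 7 of the 47 genes (14.9%) owed their class to a region that lay nearest a gene of another class, against 16 of 275 (5.82%) for BMAL1 only. *Cdhr2*, *Atp6v0c* and *Polr2a* were named after their values were seen.

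A pair of the strongest sites on the X chromosome had nearly the same sequence. *Wdr45*, an autophagy protein, had 28.8 and 23.2 at a summit 39 bp downstream of a TSS, in a region that also reached *Gpkow* and *Gm45208*. *Was*, an actin regulator of blood cells, had 26.7 and 37.5 from an intergenic summit 6232 bp upstream. The 201-bp windows around these summits shared an identical run of 124 bp, whereas the next longest run shared by any pair among the 8 strongest genes was 12 bp, so both genes are reported as uncertain, and whether reads of the 2 loci could be separated was not tested. Neither had RNAP2 at a start, and 4 of the 47 genes lay on the X chromosome, where BMAL1 peaks were scarce.

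Of the 47 genes bound by REV-ERBα only, 41 were in none of the lists or families examined. *Jund*, an AP-1 subunit, had 3.24 and 5.62 at 311 bp upstream, with strong RNAP2 at its start (81.7 and 71.5). *Phlda3*, a p53 target that inhibits AKT, had 4.78 and 2.72 at 65 bp upstream, and *Gabarap*, an autophagosome protein, had 1.79 and 2.51. *Mylpf*, the regulatory light chain of fast myosin, had 3.09 and 3.59 and was the only one of 48 sarcomere genes in the class, from a summit 320 bp from a start of *Sept1*. Outside the rule for naming genes, and chosen after their values were seen, *Hes1*, a Notch target, had a strength of 4.76, *Socs5*, a suppressor of cytokine signalling, 2.81, *Igfbp5*, an IGF-binding protein, 2.64, *Vegfa*, the angiogenic growth factor, 2.38, and *Tgfbr2*, a TGF-β receptor, 2.02. The class held 0 of 24 clock genes, 1 of 29 immediate early genes, 1 of 26 p53 and growth arrest genes, 1 of 34 autophagy genes and 1 of 1135 olfactory receptors (*Olfr99*, 2.5 and 3.18), beside 0.214% of all genes.

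Genes bound by both factors were led by clock genes. Of the 24 clock genes, 10 (41.7%) were bound by both, beside 0.62% of all genes. None was bound by either factor only as reported, though other settings placed up to 5 in BMAL1 only. This list partly holds genes that are known targets of both factors, so the count is a description. *Tef*, a PAR bZIP output factor, had BMAL1 −log10 p of 30.7 and 12.0 and REV-ERBα values of 14.5 and 16.1. *Dbp*, its relative, had BMAL1 values of 14.1 and 9.72 and REV-ERBα values of 10.6 and 11.8, from separate regions, and *Ciart*, a clock-associated repressor, had BMAL1 values of 24 and 21.7 and REV-ERBα values of 9.55 and 15.9. *Sphk2*, *Rpl18*, *Car11* and *Fam83e* shared a region with *Dbp*, so 5 genes of the class lay at that locus.

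The period and REV-ERB genes had their highest values for BMAL1. *Per1* had BMAL1 values of 36.5 and 21.2 and REV-ERBα values of 5.41 and 7.69. *Nr1d2*, which encodes REV-ERBβ, had BMAL1 values of 28.1 and 8.80 and REV-ERBα values of 10.8 and 7.01, and *Per2* had 20.5 and 5.68 against 7.49 and 16.3, so that its factors overlapped between replicates. The remaining clock genes, named after their values were seen, were *Nr1d1* (BMAL1 20.4 and 31.6, REV-ERBα 6.24 and 5.39), *Per3* (16.6 and 7.30, 3.48 and 3.84), *Bhlhe40* (11.0 and 3.36, 7.09 and 7.31) and *Bhlhe41* (7.11 and 5.22, 5.84 and 5.65). BMAL1 replicate 1 exceeded both REV-ERBα replicates at all 10 clock genes, and BMAL1 replicate 2 did so at *Ciart*, *Per1*, *Nr1d1* and *Per3*. The libraries of the factors differ in antibody and time of day, so an order between their −log10 p values describes these lists and not the occupancy.

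Sarcomere genes formed the largest listed group bound by both as reported, with 16 of 48 (33.3%, beside 0.62% of all genes). That count depended on the setting. It was 9 with −log10 p of at least 3, 9 with a distance of 1 kb and 1 with −log10 q of at least 1.3. Clock genes gave 10, 10 and 4 in the same order. The other settings gave 11 to 24 sarcomere genes. *Tcap*, which anchors titin at the Z-disc, had BMAL1 values of 11.0 and 10.6 and REV-ERBα values of 21.2 and 22.7. *Myh4*, the fast IIb myosin heavy chain, had BMAL1 values of 8.68 and 5.99 at 17 bp from a TSS, and REV-ERBα values of 13.7 and 14.9. *Acta1*, skeletal α-actin, had 7.45 and 4.95 for BMAL1 against 19.6 and 21.2 for REV-ERBα, and *Ckm*, muscle creatine kinase, had 4.45 and 4.95 against 20.5 and 27.5. In these 4 genes both REV-ERBα replicates exceeded both BMAL1 replicates, which is the reverse of *Per1* and *Nr1d1*. *Tnnt3*, fast troponin T (6.95 and 4.58, 10.1 and 13.3), and *Tpm1*, a tropomyosin (4.74 and 5.18, 11.2 and 11.0), showed the same order.

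**Figure D2:**
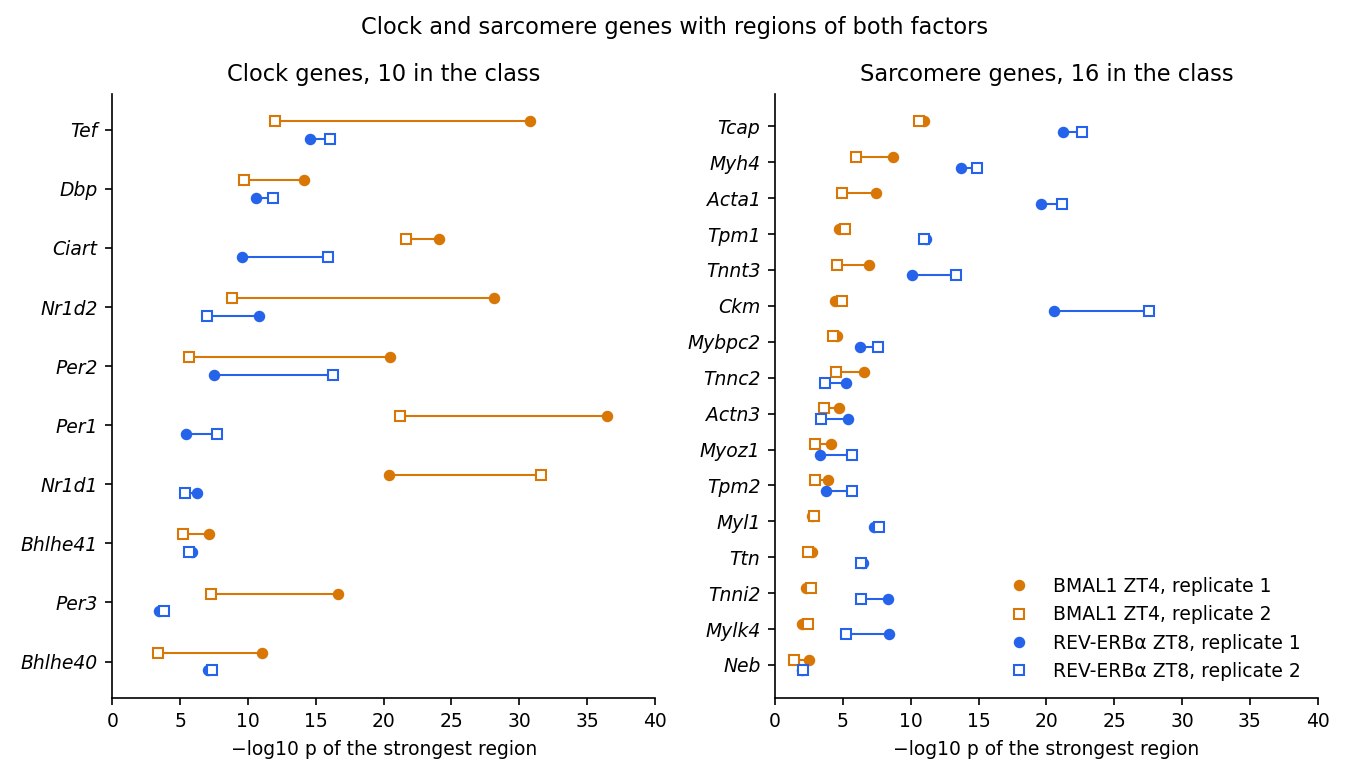
Strength (−log10 p) of the strongest BMAL1 and REV-ERBα region in each replicate for the 10 clock genes (left) and 16 sarcomere genes (right) bound by both factors; filled circles are replicate 1, open squares replicate 2, and a line joins the replicates of a factor. BMAL1 reaches 36.5 at the clock genes and 11.0 at the sarcomere genes.

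The clock and sarcomere genes also differed in the shape of the sites and in RNAP2. Median BMAL1 −log10 p was 20.4 and 9.26 in the replicates at the clock genes and 4.51 and 3.92 at the sarcomere genes, with CACGTG at 8 of 10 and 1 of 16 BMAL1 summits. REV-ERBα regions were 1072.5 bp wide at the median for the clock genes and 2480.5 bp for the sarcomere genes, where they ran up to 27270 bp (*Myh4*). RNAP2 was present at the start of 9 of 10 clock genes (*Per2* had none) and 16 of 16 sarcomere genes, with median −log10 p of 13.4 and 14.5 against 55.9 and 25.5, and its regions there had median widths of 1789 and 4499 bp. The sarcomere genes thus combined the wider REV-ERBα regions with the wider and stronger RNAP2 regions, and the part of RNAP2 density or open chromatin in those REV-ERBα and BMAL1 peaks was not tested.

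Wide regions affected where some members were placed. The *Myh4* REV-ERBα summit lay 21479 bp from its TSS, and that of *Ckm* 12368 bp. *Mrpl23*, a mitochondrial ribosomal protein, had strong sites of both factors (BMAL1 8.95 and 18.4, REV-ERBα 24.7 and 37.2), whose summits lay 14062 and 14804 bp away. Measured from the summit in place of the nearest edge, an alternative chosen after the data were seen, the classes held 261, 44 and 127 genes.

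Genes of fuel use were among the members bound by both. *Txnip*, an inhibitor of glucose uptake, had BMAL1 values of 8.25 and 8.91 and REV-ERBα values of 16.4 and 14.4, with RNAP2 of 129 and 82.8 at its start. Of 38 annotated genes of glucose and glycogen use, 4 (10.5%) were bound by both, beside 0.62% of all genes. *Aldoa*, a symbol that occurs more than once in the annotation, is counted there at 1 of its entries. *Eno3*, muscle enolase, had BMAL1 values of 4.74 and 9.61 and REV-ERBα values of 7.99 and 12.6, *Pfkfb3*, which makes the activator of phosphofructokinase, had 3.0 and 2.98 against 6.65 and 5.55, and *Aldoa*, aldolase, 2.01 and 1.87 against 5.2 and 6.94. *Pfkm*, muscle phosphofructokinase, was near the bottom of the range in replicate 2 of both factors (1.87 and 1.81). The lipid droplet genes *Plin4* and *Plin5*, neighbours that share a BMAL1 region (2.98 and 2.4), were 2 of 27 triglyceride genes (7.41%), and REV-ERBα values were 10.6 and 5.11 at *Plin4* and 2.44 and 3.75 at *Plin5*.

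Calcium handling and other muscle genes completed the named members bound by both. *Atp2a1*, the calcium pump of the fast sarcoplasmic reticulum, had BMAL1 values of 5.38 and 3.60 and REV-ERBα values of 15.6 and 14.6. *Pvalb*, the calcium buffer of fast fibers, had 2.45 and 1.83 against 7.95 and 7.79. Thus 2 of 38 calcium handling genes were in the class (5.26%, beside 0.62% of all genes). RNAP2 lay at a start of 81.6% of the calcium list, 89.5% of the glucose and glycogen list, 72.9% of the sarcomere list and 40.7% of the triglyceride list, beside 30.5% of all genes. *Mef2a*, a myogenic transcription factor, had BMAL1 values of 2.48 and 1.87 and REV-ERBα values of 15.7 and 6.60. *Stub1*, a ubiquitin ligase of protein quality control, had values between 2.01 and 2.88 in the 4 lists. *Ube2c* had 6.60 and 4.53 for BMAL1, with the REV-ERBα summit 503 bp from a start of *Tnnc2*. None of 16 heme genes was in any of the 3 classes, and neither was any of 42 other nuclear receptors and corepressors, a list that leaves out *Nr1d1* and *Nr1d2* of the clock list. *Slc16a3*, a lactate exporter (1.91 and 2.88, 1.94 and 1.40), *Zfp286*, *Zfp936*, *Zfp982* and *Vmn2r118* had a value under 3 in at least 1 replicate of each factor.

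**Figure D3:**
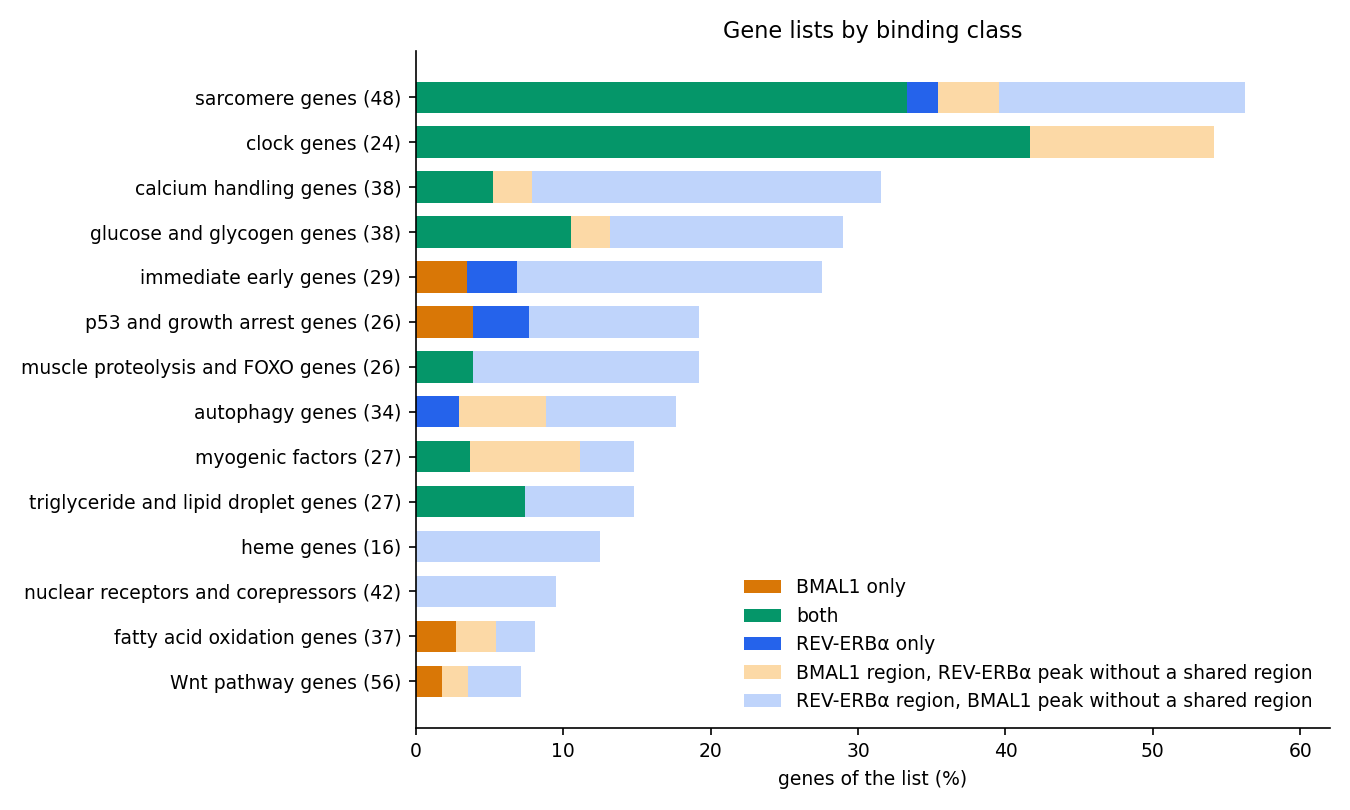
Share of each gene list (horizontal, percent of its annotated genes, whose number is in parentheses) in each class, as stacked bars; pale bars are genes with a region of the named factor and a peak of the other that is not a shared region. Clock genes (41.7%) and sarcomere genes (33.3%) have the longest bars for both factors, and the bars of the exclusive classes stay under 4%.

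Neighbouring genes shared regions, so the members are not independent. The 275, 47 and 136 genes came from 229, 38 and 93 loci. *Tcap* shared its regions with *Pnmt*, *Pgap3* and *Stard3*, and *Ciart* shared its own with *BC028528*. In the class bound by both, the BMAL1 and REV-ERBα regions overlapped at 89 genes (65.4%) and lay apart at 47, with overlap at 10 of 10 clock genes and 14 of 16 sarcomere genes when all their regions are taken. Of the 928 genes with a BMAL1 region (4.23% of all genes), 14.7% also had a REV-ERBα region, beside 3.69% of all genes.

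RNAP2 at ZT4, which the sorting did not use, was less frequent at genes bound by BMAL1 only than in the other classes as reported, though not under every setting. An RNAP2 region lay within 1 kb of a TSS for 110 of 275 genes bound by BMAL1 only (40%, 95% exact binomial interval 34.2% to 46.1%), 30 of 47 bound by REV-ERBα only (63.8%, 48.5% to 77.3%) and 96 of 136 bound by both (70.6%, 62.2% to 78.1%), beside 30.5% of all genes. The interval of the genes bound by BMAL1 only does not meet those of the other classes, while the latter overlap each other. These intervals cover the counting of genes only, and no test was made, because genes that share a region are not replicates and each factor had 2 replicates. Without RNAP2 replicate 1 or 2 the share was 58.2% in either case for BMAL1 only, 72.3% for REV-ERBα only and 79.4% or 80.9% for both, beside 47.9% and 49.0% of all genes. Without BMAL1 replicate 1 or 2 the share for BMAL1 only was 26.5% or 30.5%. Without REV-ERBα replicate 1 or 2, when a peak in 1 list sufficed, the share for REV-ERBα only was 29.9% or 23.6%, below the 40.4% or 45% for BMAL1 only, so the order of the exclusive classes was reversed. Limiting the lists by −log10 q (1.3 or more) reversed it too, with 100% for BMAL1 only, 70.9% for REV-ERBα only and 78.6% for both. BMAL1 only then held 3 genes, which included 0 of the 275 members as reported. CpG-rich starts did not follow the same order, with 53.1% for BMAL1 only, 61.7% for REV-ERBα only and 46.3% for both, beside 44.4% of all genes. Summits within 1 kb of a TSS made up 16.5% of BMAL1 summits of the genes bound by BMAL1 only and 59.0% of REV-ERBα summits of those bound by REV-ERBα only. For genes bound by both they were 24.8% of BMAL1 and 38.5% of REV-ERBα summits. Over all regions they were 5.36% and 28.4%, but these include regions beyond 10 kb, which the rule leaves out of the classes. A higher share in a class therefore follows from the rule. Genes with a region of 1 factor and a peak of the other without a shared region had 16.0% (BMAL1 summits) and 60.5% (REV-ERBα summits). Counted by gene, a region reached within 1 kb of a TSS for 16.7% of BMAL1 only and 40.4% of REV-ERBα only. For genes bound by both this share was 31.6% with BMAL1 regions and 58.8% with REV-ERBα regions. The part of position in the RNAP2 shares was not tested.

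**Figure D4:**
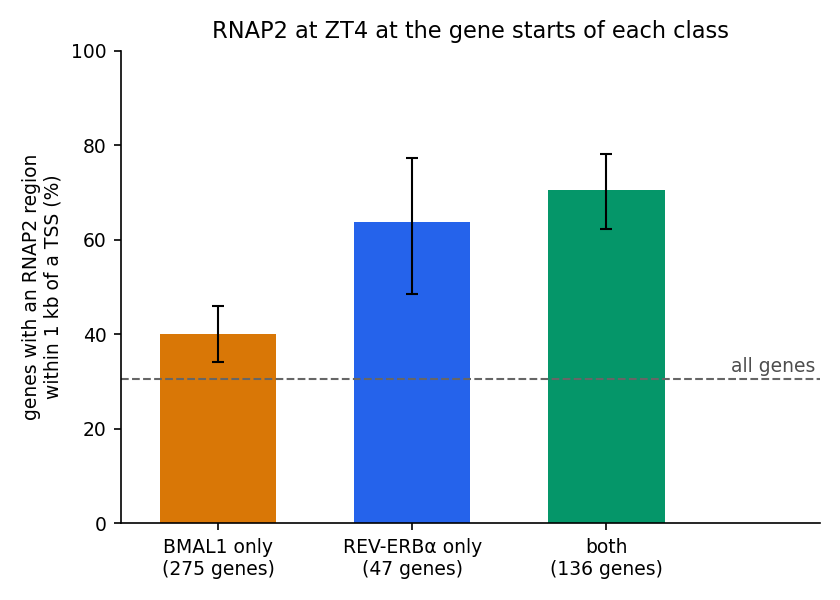
Share of genes (percent) whose starts had RNAP2 (a region of both replicate lists, 1 kb or less from a TSS), by class; bars are shares, error bars 95% exact binomial intervals and the dashed line all protein-coding genes (30.5%). The bar for BMAL1 only (40%) is lower than those for REV-ERBα only (63.8%) and both (70.6%).

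The size of each class depended on the lists. Between the exclusive classes and the class bound by both lay 517 genes (2.36%) with a BMAL1 region and a REV-ERBα peak without a shared region, and 627 genes (2.86%) with a REV-ERBα region and such a BMAL1 peak. For 372 of the 627 (59.3%) that peak was in BMAL1 replicate 2 alone, the longest list. With every list cut to its 28881 strongest peaks, the classes held 54 genes bound by BMAL1 only, 291 by REV-ERBα only and 61 by both, and the order of the exclusive classes was reversed. The 10 clock genes were bound by both under that setting too, beside 11 sarcomere genes. Leaving out a list means that a peak in the other list suffices: without BMAL1 replicate 1 the counts were 8299, 62 and 748, without BMAL1 replicate 2 they were 2570, 420 and 390, without REV-ERBα replicate 1 they were 431, 462 and 497, and without REV-ERBα replicate 2 they were 447, 403 and 481. At the edge of the distance rule, the last gene inside for BMAL1 was *Oc90* at 9998 bp and the first outside *Inpp1* at 10033 bp, and for REV-ERBα they were *Gm45234* at 9904 bp and *Mrpl49* at 10024 bp.

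**Figure D5:**
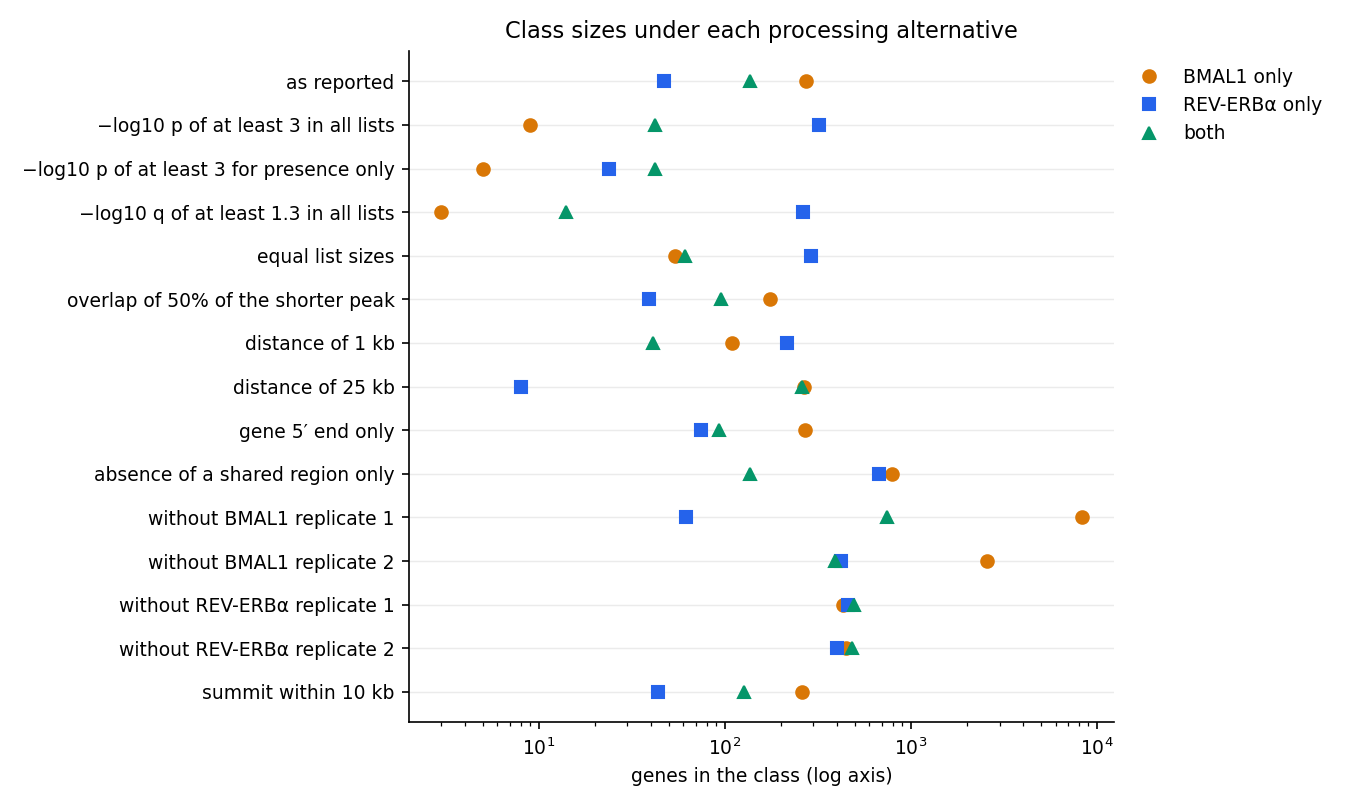
Number of genes in each class (horizontal, log axis) as reported and under each processing alternative (rows); circles are BMAL1 only, squares REV-ERBα only and triangles both. BMAL1 only is the larger exclusive class as reported (275 against 47) and the smaller with lists of equal size (54 against 291).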

How the data were processed

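Peaks of BMAL1 (ZT4), REV-ERBα (ZT8) and RNAP2 (ZT4) from mouse gastrocnemius muscle were analysed, with 2 biological replicates each. The input library was not analysed here. The authors mapped reads to mm10 with BWA 7.12 (MEM), discarded duplicates and reads with more than 1 mapping position, equalized read numbers between replicates by down-sampling, and called peaks per sample over input with MACS2 2.1.1 at a p-value cutoff of 0.05, without pooling. Each deposited peak carries the authors' fold enrichment over input (a ratio), the −log10 p and the −log10 q at its summit. The deposited score, a whole-number form of the −log10 p, was not used. Down-sampled lists give no reads per peak, so the depth behind a peak is unknown and no counting interval for it could be given.

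Peaks of a factor that overlapped by at least 1 bp were merged, and regions with a peak in both lists were kept. Their strength was the lower −log10 p of the replicates. TSSs were those of all transcripts of protein-coding genes in GENCODE M21 (GRCm38), on chromosomes whose lengths held every peak. Motifs were searched in the reference genome within 100 bp of the summit of the stronger replicate peak of each region, at promoters or elsewhere. CpG-rich meant a GC share over 50% and an observed over expected CpG ratio over 0.6 within 500 bp of the gene's 5′ end. Exact binomial intervals (95%, Clopper-Pearson) were computed. No p-value was computed, because the classes result from sorting and the genes are not replicates. Python 3.11.15, numpy 2.4.6, scipy 1.17.1 and matplotlib 3.10.9 were used. The sorting was tested on simulated data, where 200 of 200 planted genes were recovered.

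Named genes were the 8 strongest of each class (1 per region, by the nearest TSS), up to 6 of each gene list and up to 3 of each gene family per class. For genes bound by both, strength was the lower of the factors' values. The members and gene lists were chosen with earlier results of these data known.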

Additional observations from a re-analysis of the deposited data

How the results depend on the processing

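No paired analysis was possible because the results come from no test and replicates of different factors share only a number. Class sizes are given in the order BMAL1 only, REV-ERBα only and both, and were 275, 47 and 136 as reported, with RNAP2 at 40%, 63.8% and 70.6% of the genes. When all lists were limited to −log10 p of 3 or more they were 9, 322 and 42 (RNAP2 55.6% of BMAL1 only and 83.3% of both), with that limit for presence alone 5, 24 and 42 (60% and 83.3%), and with a −log10 q of at least 1.3 they were 3, 265 and 14 (100% and 78.6%). Equal list sizes gave 54, 291 and 61 (48.1% and 82.0%), an overlap of 50% gave 175 genes for BMAL1 only, and the gene 5′ end alone gave 75 for REV-ERBα only. A distance of 1 kb gave 109, 216 and 41 (58.7%, 85.2% and 90.2%), and 25 kb gave 8 for REV-ERBα only and 261 for both (31.1%, 37.5% and 58.6%). Asking only for the absence of a shared region of the other factor gave 792 and 674. Leaving out a BMAL1 or REV-ERBα list gave 431 to 8299, 62 to 462 and 390 to 748 genes. Leaving out any list, RNAP2 included, gave RNAP2 shares of 26.5% to 58.2%, 23.6% to 72.3% and 53.8% to 80.9%. RNAP2 within 10 kb was present at 47.3%, 80.9% and 86.0%, beside 38.2% of all genes, and RNAP2 of at least 3 was present at 29.5% of BMAL1 only, beside 23.8%. The cause of these shifts was not tested, apart from what each setting adds or removes. Of the named genes, 0 of 26, 1 of 13 and 7 of 33 stayed in their class under all 13 settings. At least 10 clock genes were bound by both under each of these except the −log10 q limit, which left 4. BMAL1 only held 0 clock genes as reported, but 5 without BMAL1 replicate 1 and 3 without BMAL1 replicate 2 or REV-ERBα replicate 2. It held 3 when only the absence of a shared region was asked, 2 with the −log10 q limit and 1 with the 5′ end alone.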

Other observations

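Several genes of clock and muscle biology fell between the classes, with a region of 1 factor and peaks of the other that formed no shared region. *Cry1* and *Cry2*, the cryptochrome repressors, had BMAL1 peaks of 15.4 and 8.56 and of 7.77 and 14.3 in the replicates, and a REV-ERBα peak in replicate 2 only (11.8 and 3.93). *Clock* had a shared BMAL1 region with 3.0 and 2.15 and a REV-ERBα peak of 3.18 in replicate 2 only. These are all 3 clock genes outside the class bound by both that had a BMAL1 region, and a REV-ERBα peak was absent from replicate 1 in each.

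On the REV-ERBα side, 9 of 38 calcium handling genes, 6 of 38 glucose and glycogen genes, 8 of 48 sarcomere genes and 6 of 29 immediate early genes had a REV-ERBα region and BMAL1 peaks without a shared region, beside 2.86% of all genes. *Calm3*, a calmodulin gene, had REV-ERBα values of 54.9 and 59.3 and a BMAL1 peak of 3.02 in replicate 2 only. *Fos*, the immediate early AP-1 subunit, had 14.5 and 26.9 and a BMAL1 peak of 1.40 in replicate 2 only. *Dgat2*, which makes triglycerides, had 21.4 and 19.9 and BMAL1 peaks of 3.40 and 2.4 that did not overlap. The authors reported peaks of both factors near *Dgat2*, and BMAL1 binding at its promoter by quantitative PCR of precipitated chromatin. Its place between the classes therefore describes these lists and this window only. *Uros*, a heme synthesis enzyme, had 26.7 and 31.5 and a BMAL1 peak of 2.4 in replicate 2 only. All of these genes were named after their values were seen, by no rule.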
